A study of Mus musculus with 6 samples.

Results

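Wnt ligands, their receptors and the proteins that hold them back were followed in cultured mouse melanocytes with 1 intact copy of Sox10. The genes were chosen by name: every Wnt, Frizzled (Fzd), Sfrp, Dkk and Lgr4 to Lgr6 symbol, with Lrp5, Lrp6, Znrf3, Rnf43, Axin2, Nkd1, Notum and Wif1. All 48 mouse genes that meet this rule were on the array, out of 22180 genes with a probe set of their own.

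Wnt proteins are secreted lipid-modified ligands that bind Frizzled receptors. With the co-receptors LRP5 and LRP6 they stabilise beta-catenin, which activates target genes together with TCF and LEF factors, while other Wnts act without beta-catenin. R-spondins bind LGR receptors and keep the ubiquitin ligases ZNRF3 and RNF43 from removing Frizzleds from the cell surface, and SFRP, DKK, WIF1 and NOTUM proteins block ligands or receptors outside the cell. In the neural crest and in skin, Wnt signalling directs precursors towards the melanocyte fate and acts on Mitf, the master regulator gene of pigment cells.

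Expression was measured on 6 one-colour Affymetrix arrays. The line called heterozygous here is Sox10LacZ/+ and Ink4a-Arf null, and was derived from mice 3 days old. The control line, melan-Ink4a-Arf-1, comes from mice carrying Cdkn2a tm1RDp on both copies, and the labels thus give an Ink4a-Arf loss for both lines. Both are immortal, were backcrossed to C57BL/6J, and were grown with 10% fetal bovine serum, 200 nM of the phorbol ester 12-O-tetradecanoylphorbol 13-acetate and 200 pM cholera toxin at 10% CO2. Each line was measured on 3 arrays, numbered as replicates 1 to 3 without saying whether they were separate cultures, so the p-values cover the spread between arrays, which may be technical. Each genotype is 1 cell line, and line and genotype cannot be told apart.

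Values are log2 signals, where a difference of 1 is 2-fold, and differences are heterozygous minus control with the standard error (SE) of the limma fit. Genes are said to pass where the p-value, adjusted by the Benjamini-Hochberg method over the 22180 genes fitted, was below 0.05. A signal under 5.20, the 40th percentile of all probe sets, is called dim. Signals of different genes are not comparable, because each probe set has its own brightness.

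Array medians lay between 5.72 and 5.78. Control replicate 2 stood apart: on it 261 genes differed 2-fold or more from the average of the other control arrays. The same count was 22 for control replicate 1, 54 for control replicate 3, and no more than 2 on any heterozygous array. Sox10 itself had 9.91 ± 0.10 in the control and 9.73 ± 0.05 in the heterozygous line (mean ± SD, n = 3 each), a difference of −0.18 that did not pass (adjusted p 0.213). Cdkn2a, the Ink4a-Arf gene, was above the dim threshold on every array, at 7.16 ± 0.12 in the control and 7.07 ± 0.08 in the heterozygous line, and did not pass (adjusted p 0.610). The parts of these transcripts that the probe sets cover are unknown here, so neither signal checks the genotype. All 11 melanocyte markers measured had means above the dim threshold in both lines, 2 higher and 5 lower in the heterozygous line. Their summed log2 signals were 119.4 to 122.8 in the control and 115.5 to 115.9 in the heterozygous line. Ednrb (−3.68) fell the most, to 5.40, 5.34 and 5.05, so that heterozygous replicate 3 was dim. Tyr fell by 2.10, while Kit rose by 2.29 and Mitf by 0.67. Mitf is also counted in the list of target genes below. For comparison with these and the following counts, 7.46% of all genes rose and 5.92% fell. Of 11 fibroblast markers 4 rose, and their summed log2 signal was 66.8 to 67.1 in the control and 82.1 to 82.6 in the heterozygous line. Dcn (5.92) and Pdgfrb (4.08) led them, whereas Lum was dim in both lines and Pdgfra differed by 0.15 without passing. Of 10 endothelial and smooth muscle markers 4 rose, Acta2 (5.34) the most, with sums of 56.8 to 57.5 and 64.3 to 65.1. Of 8 Schwann cell markers 4 fell, Gjc3 (−5.93) the most, and the sums went from 67.5 to 68.1 down to 54.9 to 55.8. Keratinocyte markers gave 0 calls of 8 by limma, with 2 at an unadjusted p below 0.05. Leukocyte markers gave 2 calls of 7, both higher in the heterozygous line, the larger by 1.32. The sums overlapped for keratinocytes (44.7 to 46.2 and 45.0 to 45.6) but not for leukocytes (37.5 to 38.0 and 38.3 to 39.1). Dim in both lines were Kdr and Tek of endothelium, Ptprc, Cd3e, Itgam and Adgre1 of leukocytes, Krt1, Epcam, Trp63 and Dsp of keratinocytes, and Sox2 of the Schwann cell list. The part of these cell types in the Wnt results was not tested, and in bulk samples fewer cells of a type and less RNA per cell cannot be told apart.

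Most calls were in receptor genes. Of the 48 genes, 11 passed (22.9%, where 13.4% of all genes did). Among genes whose mean over 6 arrays was not dim, 11 of 40 Wnt genes passed (27.5%), where 18.7% of all such genes did. Higher in the heterozygous line were 7: Fzd4, Lgr5, Znrf3, Fzd1, Fzd9, Wnt5a and Fzd7 (14.6%, against 7.46% of all genes). Lower were 4: Sfrp1, Fzd3, Fzd6 and Axin2 (8.33%, against 5.92%). The shift of the whole group was small, with a median difference of −0.002 against 0.001 for all genes. Differences that passed and were at least 2-fold were found for 6 of them, 3 higher and 3 lower, where 3.53% of all genes met both conditions. In 17 of the 48 (35.4%) every array of a line lay on the same side of the other line, close to the 31.6% of all genes.

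**Figure D1:**
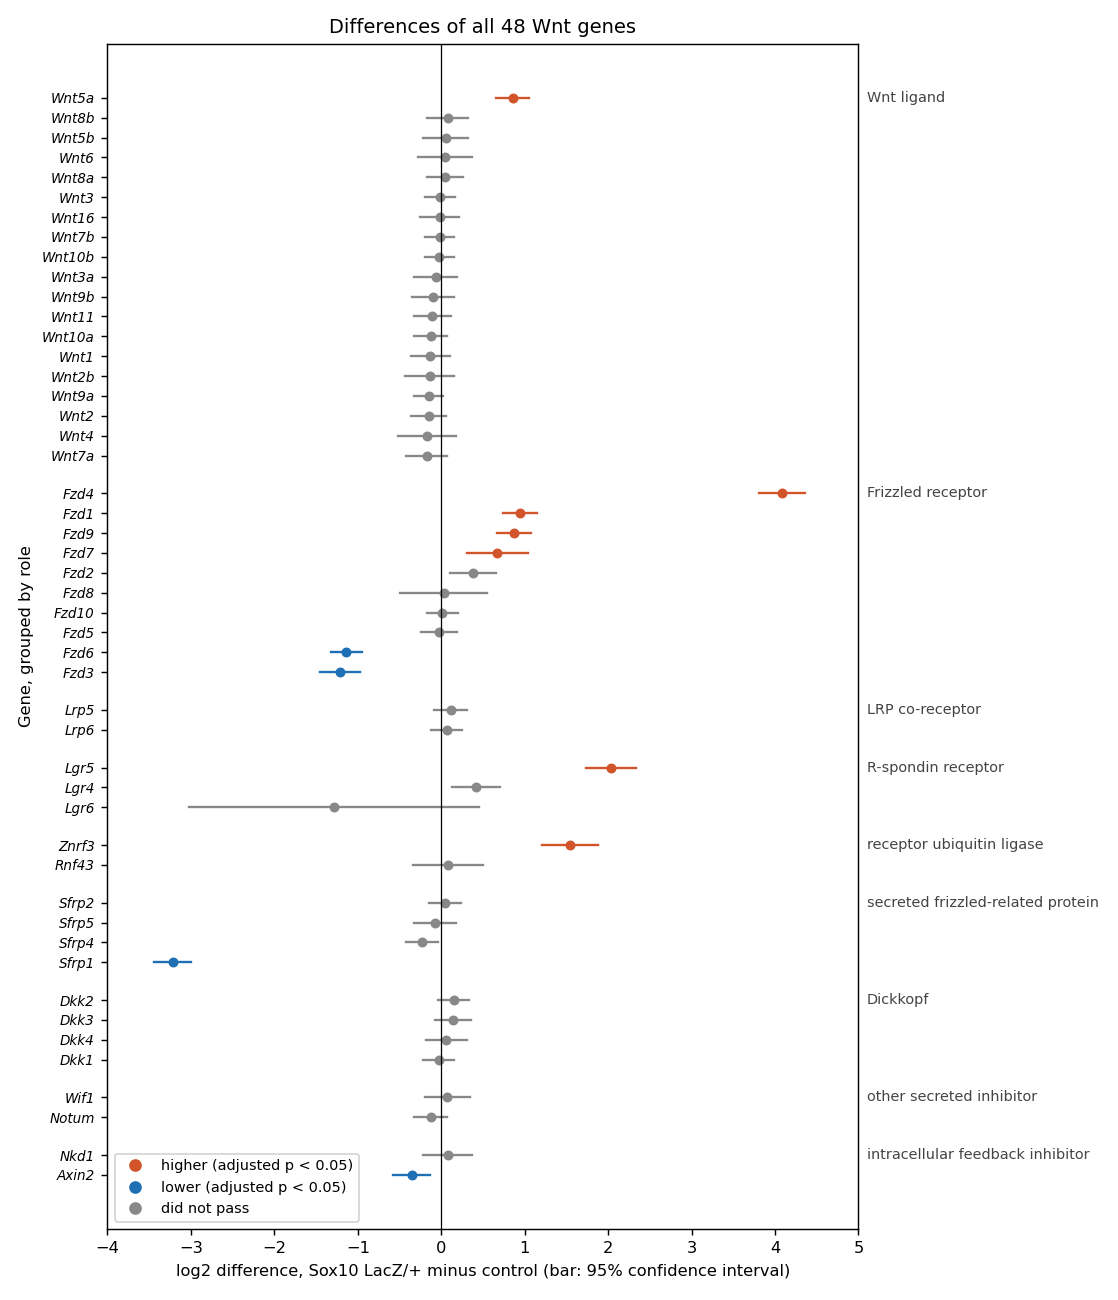
Log2 difference (heterozygous minus control, x axis) of each of the 48 genes, grouped by role (y axis), with the 95% confidence interval of the limma fit as a bar. Fzd4 (4.08) and Sfrp1 (−3.22) lie farthest from 0, most Wnt ligands lie near 0, and Lgr6 has the widest interval (−3.02 to 0.45).

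Frizzled receptors, the Wnt-binding proteins of the cell surface, accounted for 6 of the 11 calls. Among the 10 genes, Fzd4, Fzd1, Fzd9 and Fzd7 rose, Fzd3 and Fzd6 fell, and the other 4 did not pass. Thus 40% rose and 20% fell, against 7.46% and 5.92% of all genes. Fzd4, the Frizzled that also binds the non-Wnt ligand norrin, had signals of 6.39, 5.99 and 6.16 in the control and 10.41, 10.15 and 10.22 in the heterozygous line. Every heterozygous array was far above every control array. The difference was 4.08 (SE 0.12, adjusted p 3.46e-07), or 16.9-fold.

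Fzd1, a receptor that can act through beta-catenin, went from 7.61, 7.63 and 7.55 to 8.47, 8.44 and 8.70, a difference of 0.94 (SE 0.09, adjusted p 0.000276). Fzd9 went from 6.22, 6.11 and 6.21 to 6.99, 7.19 and 6.97, a difference of 0.87 (SE 0.09, adjusted p 0.000376). The SDs in the control and the heterozygous line were 0.04 and 0.14 for Fzd1 and 0.06 and 0.13 for Fzd9. In both genes the lines did not overlap. Fzd7, a receptor of neural crest and stem cells, had 9.84, 9.18 and 9.74 in the control and 10.26, 10.23 and 10.28 in the heterozygous line, a difference of 0.67 (SE 0.16, adjusted p 0.0285). Its lowest control array was replicate 2, and leaving that array out gave a difference of 0.47, which passed (adjusted p 0.00356). Fzd7 did not pass when heterozygous replicate 1, 2 or 3 was left out (adjusted p 0.0944, 0.0903 and 0.0952; 0.00356 to 0.161 over all alternatives).

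The Frizzled genes that fell are the closely related pair Fzd3 and Fzd6, which are best known from planar cell polarity, the orientation of cells and hairs within a sheet. Fzd3 went from 8.14, 7.88 and 8.24 to 6.94, 6.79 and 6.89, a difference of −1.21 (SE 0.10, adjusted p 0.000164). Fzd6 went from 9.19, 9.26 and 9.34 to 8.05, 8.13 and 8.21, a difference of −1.14 (SE 0.08, adjusted p 4.83e-05). The folds were alike, 2.32 and 2.20, and no control array reached down to a heterozygous one in either gene.

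Of the Frizzleds that did not pass, Fzd2 was nearest to the threshold, at 7.06 ± 0.21 in the control and 7.44 ± 0.11 in the heterozygous line (mean ± SD, n = 3 each, adjusted p 0.0757). Its arrays did not overlap between lines. Fzd5 had 7.40 ± 0.15 and 7.38 ± 0.03, with a 95% confidence interval of the difference from −0.24 to 0.18. Fzd8 had 7.16 ± 0.52 and 7.18 ± 0.03, and its control arrays, at 7.34, 6.57 and 7.56, lay on both sides of the heterozygous ones. Fzd10 was dim on every array (3.36 to 3.51).

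The 4 Frizzled genes that rose also had a promoter in the RefSeq table of build GRCm38.p6, which held 31 of the 48 genes. The 250 bases before each annotated start are shown 5′ to 3′ on the gene's strand, because these genes moved together. Capitals mark matches on either strand to the hexamers ACAAAG and ACAATG, which fit SOX factors, TCAAAG, which fits TCF and LEF factors, and the E-boxes CATGTG and CACGTG, which MITF can bind. ACAAAG and TCAAAG differ only in their first letter, and CACGTG reads the same on both strands.
Fzd4, chr7:89404116-89404365, plus strand: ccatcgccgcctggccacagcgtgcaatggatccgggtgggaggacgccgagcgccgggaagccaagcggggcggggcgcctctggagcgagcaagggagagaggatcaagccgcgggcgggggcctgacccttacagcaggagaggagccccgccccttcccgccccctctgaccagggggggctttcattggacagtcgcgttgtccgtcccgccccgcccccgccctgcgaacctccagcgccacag
Fzd1, chr5:4758217-4758466, minus strand: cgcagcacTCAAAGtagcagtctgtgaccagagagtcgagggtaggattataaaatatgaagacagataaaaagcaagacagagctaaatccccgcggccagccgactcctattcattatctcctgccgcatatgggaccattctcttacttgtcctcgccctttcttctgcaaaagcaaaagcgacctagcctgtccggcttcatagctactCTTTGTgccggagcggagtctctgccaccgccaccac
Fzd9, chr5:135251048-135251297, minus strand: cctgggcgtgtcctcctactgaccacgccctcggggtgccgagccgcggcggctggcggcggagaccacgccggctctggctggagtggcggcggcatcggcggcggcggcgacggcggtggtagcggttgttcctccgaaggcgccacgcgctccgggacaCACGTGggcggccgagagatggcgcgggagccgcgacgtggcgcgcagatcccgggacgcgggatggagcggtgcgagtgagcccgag
Fzd7, chr1:59481897-59482146, plus strand: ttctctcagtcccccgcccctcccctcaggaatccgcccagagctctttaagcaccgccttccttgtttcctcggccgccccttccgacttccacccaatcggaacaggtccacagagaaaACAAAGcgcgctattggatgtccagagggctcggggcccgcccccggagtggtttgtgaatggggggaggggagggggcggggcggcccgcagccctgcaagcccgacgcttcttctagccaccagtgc
A SOX hexamer was found in 2 of these 4 windows, against 25.2% of all 32851 promoter windows of this length. It lay 37 bases before the start in Fzd1 and 129 bases before it in Fzd7, counted to the first base shown in capitals. The TCF hexamer was found in Fzd1, 242 bases before the start, and in 13.8% of all windows. Fzd9 held an E-box 88 bases before the start, as 17.6% of all windows held either E-box. Fzd4, with the largest rise, held none of these letters in its window. These 4 windows were chosen because their genes rose. A SOX hexamer also lay in windows of Dkk1, Dkk2, Lgr6, Wnt1, Wnt8b and Wnt16, which did not pass. The windows of Fzd5 and Fzd10, which did not pass either, held no match. A match describes the sequence only and shows no binding.

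R-spondin receptors differed from each other. Lgr5, a receptor gene known as a stem cell marker in hair follicle and gut, had 4.74, 5.23 and 5.17 in the control and 7.04, 7.06 and 7.13 in the heterozygous line. The difference was 2.03 (SE 0.13, adjusted p 2.72e-05), from a control mean below the dim threshold to a signal above it. A second probe set of Lgr5 rose by 0.32 only and did not pass (adjusted p 0.0732 over all probe sets), and the mean of both rose by 1.18 (adjusted p 0.000259). The size of the Lgr5 rise thus differs between its probe sets.

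Lgr4, the broadly expressed family member, had 7.67, 8.08 and 7.63 in the control and 8.25, 8.13 and 8.25 in the heterozygous line, a difference of 0.42 (SE 0.13, adjusted p 0.0712). Control replicate 2 lay close to the heterozygous arrays, and without it the difference of 0.56 passed (adjusted p 0.00203; up to 0.219 over all alternatives). Lgr6, a marker of a stem cell population in skin, had 10.16, 6.91 and 9.94 in the control and 7.78, 7.72 and 7.64 in the heterozygous line. Control replicates 1 and 3 were above every heterozygous array and control replicate 2 was below every one of them. The difference of −1.29 (SE 0.75, adjusted p 0.351) did not pass, and without control replicate 2 it was −2.33 and passed (adjusted p 4.69e-06; up to 0.657 over all alternatives).

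The ubiquitin ligase gene Znrf3 had 6.53, 7.05 and 6.50 in the control and 8.27, 8.23 and 8.20 in the heterozygous line, a difference of 1.54 (SE 0.14, adjusted p 0.000253). The heterozygous arrays were all above the highest control array, which was replicate 2. Its homologue Rnf43, at 5.35 ± 0.35 and 5.43 ± 0.20, gave a difference of 0.08 with a confidence interval of −0.33 to 0.50. The co-receptor genes did not pass either. Lrp5 had 10.06 ± 0.13 and 10.17 ± 0.03 (interval −0.08 to 0.31), and Lrp6 had 11.30 ± 0.11 and 11.36 ± 0.01 (interval −0.12 to 0.25). Differences of 2-fold lie outside both intervals.

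**Figure D2:**
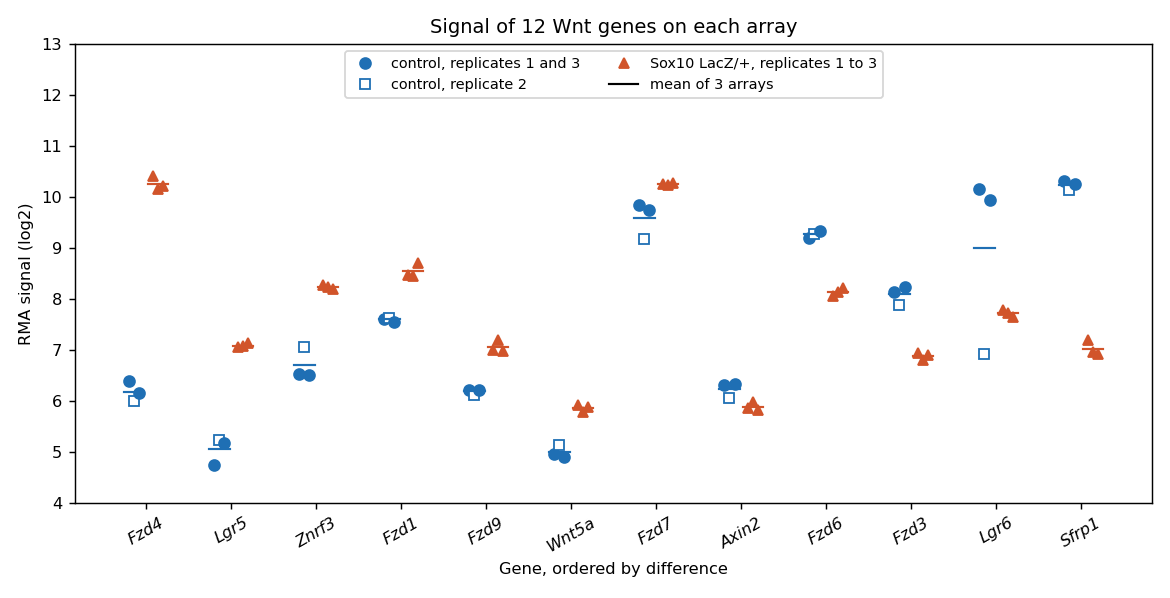
Log2 RMA signal (y axis) on each of the 6 arrays for the 12 genes (x axis) that passed or differed by at least 1, ordered by difference; blue circles and squares are control arrays, orange triangles heterozygous arrays, and lines the means of 3 arrays. The 3 heterozygous arrays of each gene lie together, and control replicate 2 (open square) leaves the other control arrays in Lgr6 (6.91 against 10.16 and 9.94).

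Of the 19 Wnt ligand genes only Wnt5a passed (5.26%, against 13.4% of all genes). Wnt5a, which mostly signals without beta-catenin, had 4.96, 5.14 and 4.89 in the control and 5.91, 5.78 and 5.87 in the heterozygous line. The lines did not overlap, and the difference was 0.85 (SE 0.09, adjusted p 0.000418). The control mean was dim and the heterozygous mean was not.

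The other 18 ligand genes differed by between −0.18 (Wnt7a) and 0.08 (Wnt8b), and their 95% confidence intervals together spanned −0.52 to 0.37. Wnt10a had 7.31 ± 0.09 in the control and 7.19 ± 0.10 in the heterozygous line, Wnt9b 6.73 ± 0.08 and 6.63 ± 0.19, and Wnt4 6.51 ± 0.32 and 6.34 ± 0.06. Wnt4 was low in control replicate 2 (6.14, against 6.71 and 6.68), and without that array its difference of −0.36 passed (adjusted p 0.0133; up to 0.839 over all alternatives). Wnt3, Wnt3a, Wnt6, Wnt8b and Wnt16 were dim in both lines, and Wnt2 in the heterozygous line. Wnt1, Wnt2b, Wnt5b, Wnt7b, Wnt8a, Wnt9a, Wnt10b and Wnt11 complete the ligands. Wnt genes that lie side by side form 4 neighbouring pairs (Wnt6 with Wnt10a, Wnt3a with Wnt9a, Wnt9b with Wnt3, and Wnt10b with Wnt1), and none of these genes passed. Wnt9b and Wnt3 overlap in the RefSeq gene table.

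Among the 10 secreted inhibitors 1 passed (10%, against 13.4% of all genes). Sfrp1, whose protein carries a Frizzled-like domain and binds Wnts outside the cell, had 10.31, 10.14 and 10.26 in the control and 7.18, 6.95 and 6.92 in the heterozygous line. The gap between the lines was wide beside their SDs of 0.09 and 0.14, a difference of −3.22 (SE 0.10, adjusted p 3.84e-07) or 9.31-fold lower. Of the other Sfrp genes, Sfrp2 differed by 0.05, Sfrp4 by −0.23 (dim in both lines, adjusted p 0.119) and Sfrp5 by −0.08, and none of them passed. Dickkopf genes, whose best-known products block LRP5 and LRP6, did not pass. Dkk3, an atypical member, had 11.84 ± 0.16 and 11.98 ± 0.01, and the differences of Dkk1, Dkk2 and Dkk4 lay between −0.03 and 0.15. Wif1, which sequesters Wnts, differed by 0.07 and Notum, which removes their lipid, by −0.13, neither of which passed.

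Feedback genes inside the cell are induced by the pathway that they dampen. Axin2, a scaffold of the complex that degrades beta-catenin and a common readout of signalling, had 6.31, 6.05 and 6.33 in the control and 5.85, 5.96 and 5.82 in the heterozygous line. The lines did not overlap, and the difference of −0.35 (SE 0.10) passed narrowly (adjusted p 0.0491; 0.00629 to 0.173 over all alternatives). It did not pass in 13 of 17 alternatives, among them the fits without control replicate 1 (0.146) or 3 (0.131) or heterozygous replicate 1 (0.158), 2 (0.092) or 3 (0.173), and a second probe set differed by −0.15 (adjusted p 0.248). Nkd1, an inhibitor that binds Dishevelled, had 5.30 ± 0.18 and 5.38 ± 0.19.

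Other genes of the pathway were taken from textbook lists. These lists were chosen with earlier results of these data known, so their shares are descriptive only. Of the 77 on the array 24 passed (31.2%, against 13.4% of all genes), 16 higher and 8 lower, with a median difference of 0.04. Only 6 of the 77 were dim over 6 arrays, and 18.7% of all genes that were not dim passed. Genes for extracellular regulators and co-receptors numbered 8 higher and 2 lower of 29, intracellular ones 8 and 4 of 42, and genes of Wnt secretion 0 and 2 of 6.

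Rspo2, the ligand gene that pairs with LGR receptors and ZNRF3, had 5.72, 6.14 and 6.17 in the control and 8.31, 8.44 and 8.33 in the heterozygous line. The lines lay far apart, with a difference of 2.35 (SE 0.13, adjusted p 1.02e-05), and Lgr5 and Znrf3 rose as well. Rspo1 (−0.13), Rspo3 (0.15) and Rspo4 (−0.01) did not pass. Tspan12, whose product enhances norrin signalling through FZD4, had 6.55, 7.39 and 6.78 in the control and 10.31, 10.45 and 10.37 in the heterozygous line, and rose by 3.47 (SE 0.19, adjusted p 1.18e-05). The norrin gene Ndp, named after its value was seen, was dim in both lines and differed by 0.11 without passing.

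Frzb, an SFRP family gene that the naming rule did not reach, moved the other way from Sfrp1. It had 8.48, 7.24 and 8.70 in the control and 11.10, 11.16 and 11.11 in the heterozygous line, a difference of 2.98 (SE 0.33, adjusted p 0.000638). All heterozygous arrays were above the control, where replicate 2 was lowest, and the fit without that array gave 2.54. Ror1, a receptor gene for WNT5A, rose by 2.18 (SE 0.10, adjusted p 4.69e-06), from 6.96, 6.65 and 6.88 to 9.05, 9.08 and 8.90. Wnt5a rose as well. Its relative Ror2 differed by 0.03 and Ryk, another Wnt receptor gene, by 0.05, neither of which passed. The glypican gene Gpc4, dim in the control, rose by 2.29 (SE 0.11) and the polarity gene Prickle2 by 1.44 (SE 0.12). The polarity cadherin gene Celsr2 fell by 1.08 (SE 0.11) and Tpbg, which encodes a membrane glycoprotein that inhibits the pathway, fell by 1.10 (SE 0.11).

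Of the transcription factor genes at the end of the pathway, Tcf7l2 rose by 1.05 (SE 0.16, adjusted p 0.00325) and Tcf7l1 by 0.81 (SE 0.08, adjusted p 0.000313). The Tcf7l2 call was lost without variance moderation (adjusted p 0.0664; 0.000156 to 0.0664 over all alternatives). Lef1 had 8.57 ± 0.32 and 8.32 ± 0.12 and did not pass (adjusted p 0.382), but it did without control replicate 2, at −0.43 (adjusted p 0.0147; up to 0.675 over all alternatives). Ctnnb1, the beta-catenin gene, had 12.37 ± 0.02 and 12.34 ± 0.02, with an interval of the difference from −0.18 to 0.12. The Dishevelled-binding genes Dact1 and Dact2 rose by 1.10 (SE 0.10) and 1.06 (SE 0.12). Dact1 has 2 probe sets, and its rise was 0.65 to 1.19 over all alternatives, lowest with the probe sets averaged. It passed in all 17. Porcn, which encodes the enzyme that adds the lipid to Wnts, fell by 0.64 (SE 0.09, adjusted p 0.00302), and Wls, the Wnt carrier gene, differed by 0.09 without passing.

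Genes reported as targets of beta-catenin and TCF gave 8 rises and 3 falls among 24 measured (45.8% passed, against 13.4% of all genes), with a median of 0.06. Of the 24, 0 were dim over 6 arrays, and 18.7% of all genes that were not dim passed. This list, too, was chosen with earlier results of these data known. Prox1, a homeobox gene, rose by 1.04 (SE 0.10) and Tnfrsf19, a receptor gene of the TNF receptor family, fell by 2.09 (SE 0.18). Myc rose by 0.35 (SE 0.07, adjusted p 0.0135) and lost its call without heterozygous replicate 2 or 3 (adjusted p 0.0519 and 0.0757; 0.00693 to 0.0757 over all alternatives). The cyclin gene Ccnd1 had 12.76 ± 0.04 and 12.70 ± 0.05 and did not pass. The target count was 7 and 6 without heterozygous replicate 2 or 3, and between 6 and 14 with any single array left out. The targets moved in both directions. Axin2, a target counted among the feedback genes, was lower by 0.35, a call lost in 13 of 17 alternatives. The list left out all 48 Wnt genes, so any other targets among them, higher or lower, are not in its count.

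**Figure D3:**
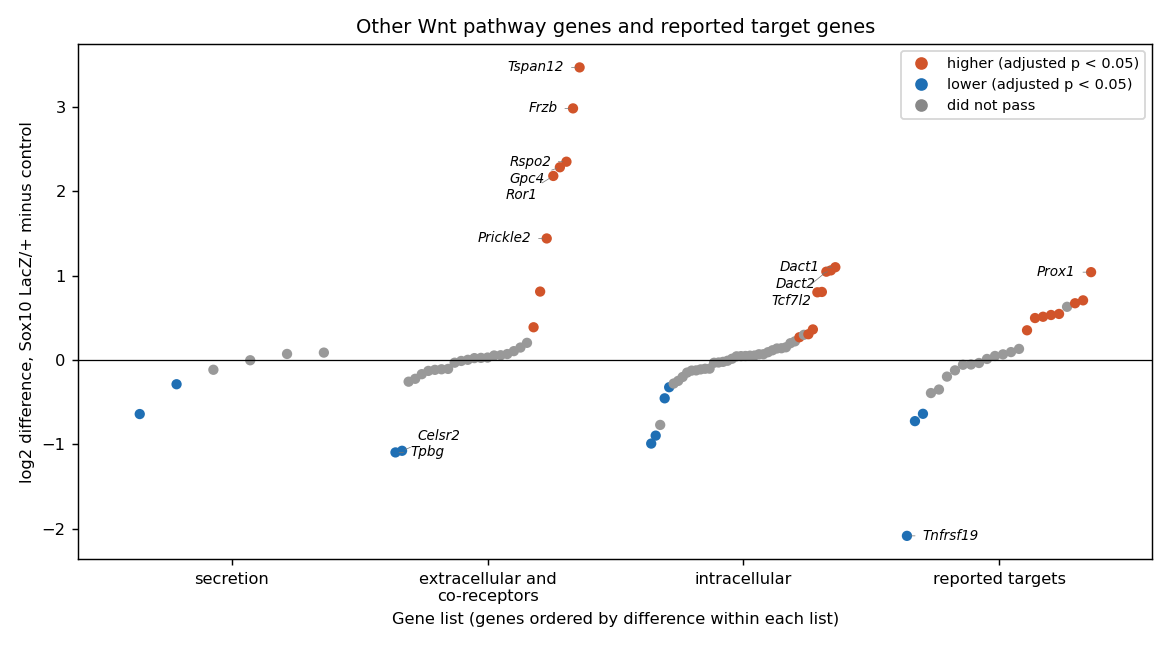
Log2 difference (heterozygous minus control, y axis) of each measured gene of 4 textbook lists (x axis), ordered by difference within its list and coloured by call. Tspan12 (3.47), Frzb (2.98) and Rspo2 (2.35) are the highest among extracellular genes, and Tnfrsf19 (−2.09) is the lowest among targets.

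Chromosome 6 was higher as a whole in the heterozygous line, where 20.6% of its 1201 genes rose and 2.91% fell, with a median difference of 0.08, against 6.72%, 6.11% and −0.002 on other chromosomes. Of the 48 Wnt genes, Wnt2, Wnt5b, Wnt7a, Wnt16 and Lrp6 lie there, and 0 of these 5 passed by limma or had an unadjusted p below 0.05. Of the pathway and target genes, Tspan12, Prickle2, Tcf7l1, Mitf and Met lie there and all 5 rose. The part of the chromosome in these rises was not tested.

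Neighbours of the 11 genes that passed were called about as often as genes in general. Among the 5 measured genes on each side of each, 110 in all, 7 passed in the same direction, 11 in the opposite one and 92 did not pass, so 16.4% passed, against 13.4% of all genes. Fzd4 lies on chromosome 7 in a stretch where the pigment genes Tyr (−2.10) and Rab38 (−1.30) and the malic enzyme gene Me3 (−1.27) fell, while Fzd4 and its neighbour Tmem135 (0.32) rose. Kremen1, which encodes a DKK receptor and lies near Znrf3 on chromosome 11, rose by 0.81.

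The spread between arrays of these genes was larger in the control line. The median SD of the 48 genes was 0.15 in the control and 0.08 in the heterozygous line, against 0.12 and 0.08 for all genes. Lgr6 had the largest control SD (1.81), and the largest heterozygous SD was 0.21 (Wnt6). In Lgr6, control replicate 2 minus the mean of the other control arrays was −3.14, a deviation that 6 of 22180 genes, Lgr6 included, reached or passed. It was at least 0.5 in size in Fzd8 (−0.88), Fzd7 (−0.60), Wnt4 (−0.56) and Znrf3 (0.54) as well. In 7 of the 11 genes that passed (63.6%) it was the control array nearest to the heterozygous mean, as in 46.9% of all genes that passed. Without it, 14 of the 48 genes passed, 8 higher and 6 lower, when Lgr4, Lgr6 and Wnt4 joined the other 11.

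**Figure D4:**
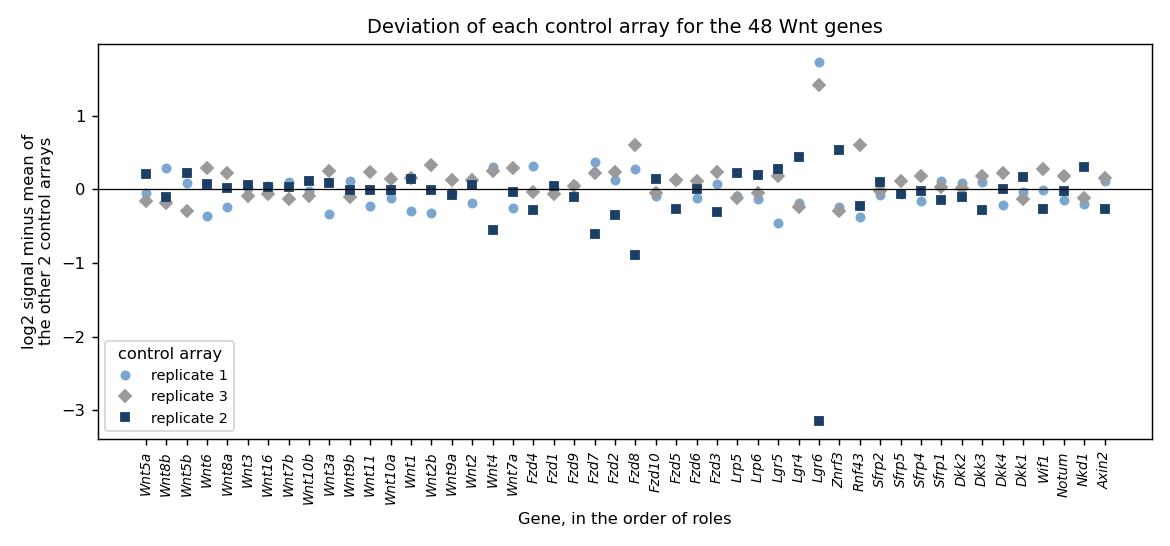
For each of the 48 genes (x axis, in the order of roles), the log2 signal of each control array minus the mean of the other 2 control arrays (y axis). Replicate 2 (dark squares) lies at −3.14 in Lgr6 and between −0.88 and 0.54 in the other genes.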

How the data were processed

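The deposited table holds log2 values that, per the submitters' processing notes, the authors made with RMA, a method that subtracts background, equalises the arrays and summarises probes into probe sets. The notes also name Partek. Their versions and settings were not stated in the sources used here. Of 41345 probe sets, 23521 carried 1 gene symbol, 1814 several, and the other 16010 have no entry in the probe annotation. The brightest probe set over 6 arrays stood for each of 1082 genes with more than 1, no filter was applied, and 22180 genes were fitted in R 4.3.3 by limma 3.58.1 (functions lmFit and eBayes, 2-sided, 4 residual and 7.87 total degrees of freedom), which gave all adjusted p-values. The table gives no detection calls, so a dim signal is not a proof of absence, and the number of arrays limits the precision. The replicate number was not a block in the fit: the labels tie no shared culture or day to it, and arrays with the same number deviated independently (r across genes 0.007, 0.016 and −0.004). The fit was tested on simulated data.

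Named with values were members that passed or differed by at least 1, the 10 brightest other members, and pathway and target genes that passed with a difference of at least 1, and whatever their values Ctnnb1, Lef1, Tcf7l1, Tcf7l2, Porcn, Wls, Ror1, Ror2, Ryk, Rspo1 to Rspo4, Frzb, Myc and Ccnd1. Tcf7 was also on that list and was not analysed here. The other members were given as ranges or, in small groups, with their own differences; Rnf43, Nkd1, Fzd10, Sfrp2, Sfrp4, Sfrp5, Wif1 and Notum are outside the rule. Members and lists were chosen with earlier results of these data known. The fit was repeated with median-centred or quantile-normalised arrays, without dim genes, with probe sets averaged by gene or all kept, with a trended, robust or unmoderated variance, with array weights, with the replicate block, without chromosome 6, and leaving out each array. Promoters are from RefSeq, GRCm38.p6; chromosomes and neighbours are from its gene table.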

Additional observations from a re-analysis of the deposited data

How the results depend on the processing

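Of the 11 genes that passed, 9 kept their direction and their call in all 17 alternatives. Fzd7 and Axin2 lost theirs in 4 and 13 of them, and no call changed direction. The fits without dim genes, without chromosome 6 or with all probe sets kept could change a gene's p-value but not its difference. With all probe sets kept, the brightest one was read again for each gene. A second probe set, as that of Lgr5 which did not pass, was thus in no alternative on its own. Lrp6, Sfrp2 and Notum also have a second probe set, which differed by −0.11, −0.14 and −0.27 without passing. For Lrp6 and Sfrp2 the sign was opposite to that of the brightest probe set. Without variance moderation 9 of the 48 Wnt genes, 1717 of all genes and 6 target genes passed. With single arrays left out, between 9 and 14 Wnt genes, 16 and 27 other pathway genes, 6 and 14 target genes and 1768 and 4222 of all genes passed, the highest counts being those without control replicate 2. With the replicate block 10 Wnt genes and 2512 of all genes passed. Calls in each fit over all genes were also followed for 48 named genes, a different set from the 48 Wnt genes. It holds part of the Wnt genes, other pathway and target genes, and Sox10. In that set only Axin2 changed its call with the block, and did not pass. Lgr6 and Lgr4 also passed with array weights (adjusted p 0.0267 and 0.00752). With dim genes left out, 40 of the 48 were tested. Signals near the dim threshold, among them most Wnt ligands, limit what a difference of 0 shows for these genes.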
